A study of Mus musculus with 4 samples.

Results

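Cluster 8 is 1 of the 8 mature luminal clusters among 13 clusters of cells sorted as luminal from the pubescent mouse mammary gland, and its members were the cells to which the deposited table gives that cluster number. It held 2937 of 32439 cells, and the other 7 mature luminal clusters, numbered 4 to 7 and 9 to 11, held 20863. Thoracic and abdominal glands of 3 female mice per genotype, aged 6 weeks and on a C57BL/6N background, were pooled, and sorted luminal cells were run on the 10× Chromium platform. The wild-type (WT) pool was *Erbb3*+/+;MMTV-Cre and the mutant pool was *Erbb3*V943R/V943R;MMTV-Cre. Both pools carried MMTV-Cre, a transgene that expresses the recombinase from a mouse mammary tumor virus promoter. In the mutant, the targeted allele of *Erbb3* carries a wild-type cDNA that Cre removes to expose the V943R exon, so that the mutation is present only in cells in which Cre has acted. Each pool was sequenced as 2 libraries, named A and B, and the A of one genotype is not paired with the A of the other. With 1 pool per genotype there was no biological replicate, the 2 libraries of a pool are technical, and no test between genotypes and no p-value are given.

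Mature luminal cells are the hormone-sensing cells of the mammary ducts. They carry the receptors for estrogen, progesterone and prolactin, depend on the transcription factors FOXA1 and GATA3, and answer the hormones of puberty and pregnancy largely through signals to their neighbours, among them amphiregulin. Most of them do not divide at a given moment. The mitochondrial genome encodes subunits of the respiratory chain and of ATP synthase together with the ribosomal and transfer RNAs needed to make them, and all other parts of the mitochondrion are encoded in the nucleus.

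Levels are given as CPM, the count per 1000000: the unique molecular identifiers (UMIs, 1 per captured mRNA molecule) of a gene, summed over a set of cells, relative to all UMIs of those cells. Cluster 8 held 919 and 705 cells in WT libraries A and B and 687 and 626 cells in mutant libraries A and B, with between 3198411 and 3642471 UMIs per library. The median cell of cluster 8 had 3906 UMIs from 1844 genes, against 3705 UMIs and 1771 genes in the other mature luminal clusters. The library medians ran from 3394 UMIs in WT A to 4428 in mutant B. Of the cells of cluster 8, 112 (3.81%) had a barcode that was also used in another library, as had 3.04% of the other mature luminal cells. Intervals are 95% intervals that cover counting error only.

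The markers of mature luminal cells were present throughout cluster 8. *Prlr*, the prolactin receptor, was at 2700 and 2727 CPM in the WT libraries and at 2291 and 2679 CPM in the mutant libraries of cluster 8. Pooled, it was at 2595 CPM in cluster 8 against 1967 CPM in the other mature luminal clusters, a log2 ratio of 0.40 (0.38 to 0.42). A UMI of *Prlr* was found in 99.7% of the cells, against 24.8% of the cells of luminal progenitor cluster 1, where a median cell had 1854 UMIs. After each cell was thinned to 1000 UMIs, these shares were 89.4% and 13.7%. *Pgr*, the progesterone receptor, was at 153, 180, 154 and 192 CPM in WT A, WT B, mutant A and mutant B, with a log2 ratio of 0.19 (0.12 to 0.25) over the other mature luminal clusters. *Foxa1* was at 166, 156, 165 and 172 CPM in the same order, with a log2 ratio of 0.18 (0.11 to 0.24). The libraries of the genotypes overlapped for *Pgr* and *Foxa1*, and all 3 genes were well above their level in the progenitors: at 232 CPM, 16.9 CPM and 23.1 CPM, respectively, in cluster 1. *Cited1*, a transcriptional cofactor of estrogen receptor signaling, was lower, at 996 CPM in cluster 8 against 1341 CPM, a log2 ratio of -0.43 (-0.45 to -0.40). The luminal keratins *Krt8*, *Krt18* and *Krt19* had log2 ratios of -0.10, -0.04 and -0.15.

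A gene was called higher or lower in cluster 8 when it differed by a fold of 1.5 or more from the other mature luminal clusters, had at least 50 UMIs on the side with more, and differed in the same direction in all 4 libraries. Of 16293 genes, 160 (0.982%) were higher and 696 (4.27%) were lower. The median log2 ratio of all genes was -0.00. Because the clusters were made from the expression of these cells, the counts describe the cluster and are no test of it. The counting interval excluded a ratio of 1 for 160 of the 160 higher genes and for 529 of the 696 lower ones. For the higher genes the fold and the minimum of UMIs fix this outcome in advance, so it is no further support. None of the 12 genes of the mature luminal list met either rule (median log2 ratio 0.04), and neither did any of the 12 luminal progenitor genes, the 7 basal genes or the 11 junction genes that could be tested. The pattern of expression over 16679 genes was closest to those of cluster 7 (Pearson r of 0.992 across genes) and cluster 4 (0.992), then cluster 10 (0.988) and cluster 11 (0.986), and farthest from cluster 5 (0.962).

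The genes that set cluster 8 apart upwards were led by transcripts of the mitochondrial genome. Of the 37 genes of that genome in the table, 26 could be tested, of which 16 were higher and 0 lower, with a median log2 ratio of 1.53. Among all genes tested, 0.982% were higher and 4.27% lower, so that 0 of 26 lower is near the share of all genes. Together the genes of the mitochondrial genome made up 10249 CPM in cluster 8 and 2965 CPM in the other mature luminal clusters. In the libraries of cluster 8 the sum was 10561 CPM in WT A, 9846 in WT B, 9863 in mutant A and 10720 in mutant B, so that the genotypes overlapped. Cluster 9 had the next highest sum, 6231 CPM, and cluster 10 the lowest, 2106 CPM.

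Subunits of respiratory complex I were among the genes with the largest ratios. Of the genes of the mitochondrial genome, *mt-Nd2*, *mt-Nd4*, *mt-Nd6*, *mt-Cytb*, *mt-Co1* and *mt-Rnr1* were chosen for description after their values were seen. *mt-Nd1* (GRCm38, chrM:2751-3707, plus strand) was at 2391, 2164, 2039 and 2403 CPM in WT A, WT B, mutant A and mutant B of cluster 8. In the other mature luminal clusters the same libraries had 555, 523, 528 and 573 CPM, so that each library of cluster 8 lay far above each library of the rest. The log2 ratio was 2.05 (2.03 to 2.07). *mt-Nd4* was at 1937 against 517 CPM (1.90), *mt-Nd5* at 246 against 59.0 CPM (2.06) and *mt-Nd2* at 232 against 99.6 CPM (1.22). *mt-Nd4l* had the largest ratio of the genes called higher, at 3.90 against 0.69 CPM (2.50, 1.95 to 3.06), from 53 UMIs in cluster 8. *mt-Nd6*, which is the subunit encoded on the opposite strand, was not higher: 31.0 CPM in cluster 8 against 34.7 CPM, a log2 ratio of -0.16 (-0.31 to -0.01).

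The other arms of the respiratory chain showed the same difference. *mt-Cytb*, of complex III, was at 3894 CPM in cluster 8 against 1215 CPM (1.68). Of complex IV, *mt-Co1* was at 495 against 151 CPM (1.71), *mt-Co2* at 116 against 28.0 CPM (2.06) and *mt-Co3* at 152 against 38.2 CPM (1.996). *mt-Atp6*, of ATP synthase, was at 97.5, 63.5, 112 and 114 CPM in the 4 libraries and at 17.4, 13.3, 20.9 and 19.4 CPM in the other mature luminal cells of the same libraries, with a log2 ratio of 2.48 (2.38 to 2.59). WT B was the lowest library of cluster 8 for this gene and was still above all libraries of the rest. The ribosomal RNAs *mt-Rnr2* and *mt-Rnr1* were at 495 against 155 CPM (1.67) and at 51.4 against 26.9 CPM (0.94). *mt-Rnr1* was also the gene whose margin over the next cluster was small, since cluster 9 had 45.8 CPM.

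**Figure D1:**
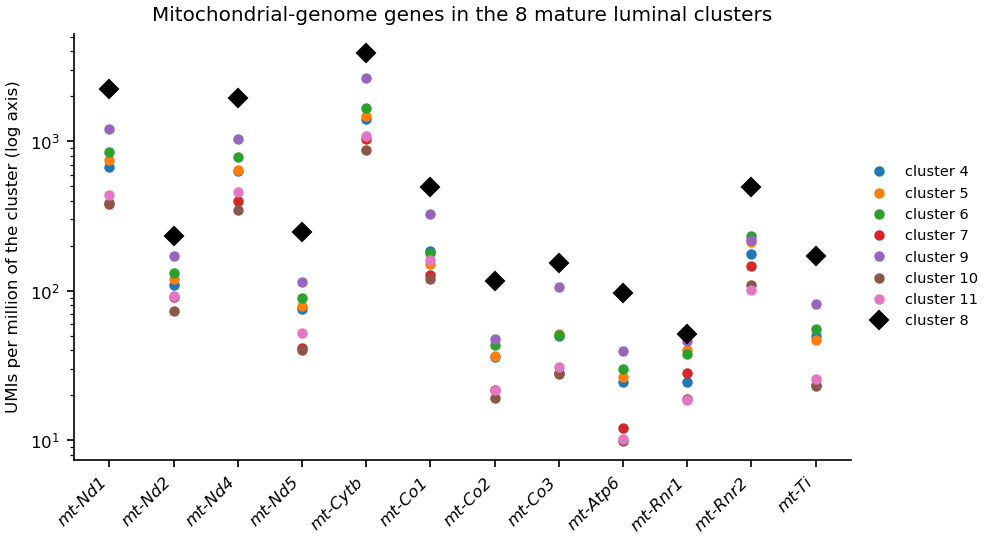
Levels of 12 genes of the mitochondrial genome in the 8 mature luminal clusters, in CPM of the cluster on a log axis; diamonds are cluster 8 and circles the other clusters, all libraries pooled. Cluster 8 is the highest for each of these genes, and cluster 9 is the next highest for most of them.

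Another 14 of the higher genes, of 16 tested, were nuclear loci whose annotated transcripts match the mitochondrial genome. Among all genes tested, 0.982% were higher. *Gm10925*, annotated on chromosome 1 (GRCm38, chr1:24613974-24614651), matches *mt-Atp6* over 678 bases at 100% identity, and was at 176 CPM in cluster 8 against 36.2 CPM (2.28). *Gm28661*, which lies beside it, matches *mt-Co2* at 100% and was at 168 against 35.6 CPM (2.24). *Gm28437* matches *mt-Co3* at 100% and was at 278 against 67.8 CPM (2.04). Reads of these loci and of their mitochondrial counterparts can be split between both, so the level of each member of such a pair is uncertain.

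Cell by cell, the shift was spread over the cluster and was not carried by a few cells. The mitochondrial share of a cell, that is the percentage of its UMIs that came from the mitochondrial genome, had a median of 0.952% in cluster 8, and its 5% and 95% percentiles were 0.456% and 1.98%. The library medians were 0.978% and 0.934% in WT A and B and 0.909% and 0.962% in mutant A and B, so that the genotypes overlapped. The median was 0.207% over the other mature luminal cells, with clusters between 0.169% (cluster 10) and 0.475% (cluster 9). Of the cells of cluster 8, 58.4% lay above the 95% percentile of the other mature luminal cells (0.864%), and the lowest share in any of them was 0.194%. By the 95% percentile of the same library, 63.3% and 65.7% of the cells of cluster 8 lay above it in WT A and B. In mutant A and B 50.7% and 49.7% did, so that the genotypes did not overlap on this measure. Conversely, 825 of the 20863 other mature luminal cells (3.95%) reached the median of cluster 8.

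Depth and number of genes per cell moved little with this share. Spearman's rho between the mitochondrial share and the UMIs of a cell, as a description over the cells of 1 library, was -0.13 in WT A, -0.09 in WT B, -0.16 in mutant A and -0.02 in mutant B. When the cells of cluster 8 were divided into 4 groups of about equal size by mitochondrial share, the median share ran from 0.570% to 1.55%, and the median cell had 4011 UMIs in the lowest group and 3528 in the highest. Genes per cell were 1861 and 1738 in these groups. Cells among the 6% with the highest doublet scores of the series made up 6.26% of the lowest group and 0% of the highest.

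**Figure D2:**
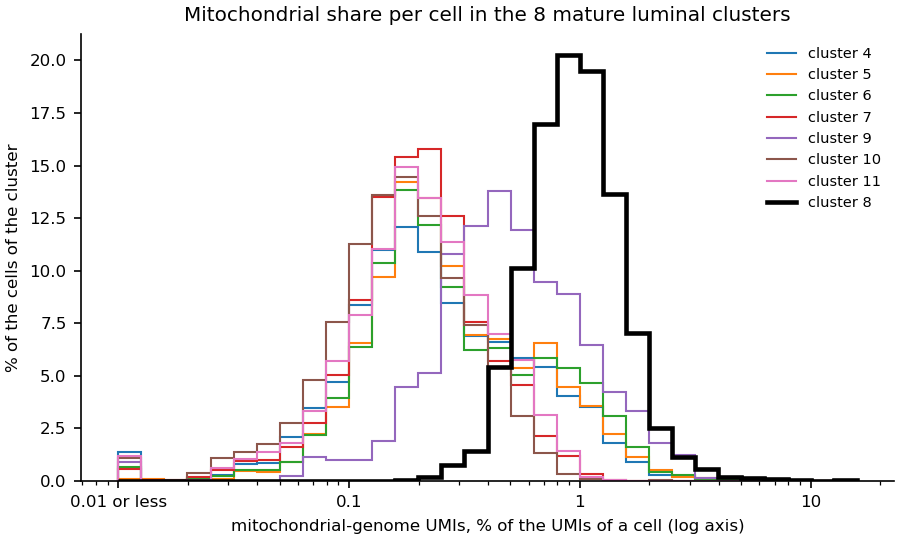
Distribution of the mitochondrial share per cell (percentage of the UMIs of a cell, log axis) in the 8 mature luminal clusters, as the percentage of the cells of each cluster in each bin; all libraries pooled. Cluster 8 (black) is centred near its median of 0.952%, the other clusters apart from cluster 9 near 0.2%, and clusters 4, 5 and 6 have a shoulder in the range of cluster 8.

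Outside the mitochondrial genome and the loci that match it, 130 genes were higher in cluster 8. The genes described here, those with the most UMIs and those with the largest ratios, were chosen after their values were seen. *AW112010* (GRCm38, chr19:11047612-11055808), annotated as a long intergenic RNA and known as a gene induced by interferon in immune cells, had the most UMIs of them. It was at 1562, 1520, 1527 and 1633 CPM in WT A, WT B, mutant A and mutant B of cluster 8, and at 707, 727, 698 and 746 CPM in the other mature luminal cells of these libraries. No library of cluster 8 overlapped with the rest, and the log2 ratio was 1.12 (1.09 to 1.14). With each cell thinned to 1000 UMIs, 68.5% of the cells of cluster 8 and 40.7% of the other mature luminal cells had a UMI of it. The same share was 5.88% in luminal progenitor cluster 1 and 26.3% in the rare clusters 12 and 13, in which 18.2% of the cells had a UMI of *Prlr*.

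*Hes1* (GRCm38, chr16:30064384-30067796), the transcriptional repressor through which Notch receptors act, was at 982 and 886 CPM in the WT libraries and at 713 and 776 CPM in the mutant libraries of cluster 8. The other mature luminal cells had 536 and 528 CPM in the WT libraries and 416 and 423 CPM in the mutant libraries. It was thus higher in cluster 8 in every library, with a log2 ratio of 0.80 (0.77 to 0.83), and lower in the mutant than in WT on both sides. The rest of the Notch list did not share this: of 9 tested genes *Hes1* was the 1 that was higher, and the receptor *Notch2* (8.45 against 19.95 CPM) and the ligand *Jag1* (29.6 against 48.2 CPM) were lower. For both, cluster 4 was the highest, at 68.0 CPM for *Notch2* and 125 CPM for *Jag1*, and the level in cluster 8 was close to that in clusters 7, 10 and 11. *Nrarp*, another target of Notch, was at 10.9 CPM against 14.8 CPM. Among all genes tested, 0.982% were higher and 4.27% lower, and so few calls among 9 genes say little about the list.

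*Eif3e*, which encodes a subunit of the translation initiation factor eIF3, was at 379 CPM in cluster 8 against 217 CPM (0.81, 0.76 to 0.85). *Dmbt1*, a secreted scavenger receptor of mucosal surfaces, was at 290 against 153 CPM (0.93). For *Dmbt1*, cluster 8 ranked behind cluster 9, which had 500 CPM, while for *AW112010*, *Hes1* and *Eif3e* it ranked highest of the 8 clusters. *Iigp1*, an interferon-inducible GTPase, was at 129 against 57.9 CPM (1.16, 1.08 to 1.24). *Ly96*, the co-receptor of TLR4 for lipopolysaccharide, was at 20.95 against 9.25 CPM (1.18, 0.98 to 1.38). On the interferon list, 0 of 12 tested genes were higher and 3 were lower in cluster 8, including *Isg15* (25.3 against 39.0 CPM) and *Irf7* (5.66 against 8.59 CPM). Of all genes tested, 0.982% were higher and 4.27% lower, so that 0 of 12 higher is near the share of all genes. The tested genes of the list had a median log2 ratio of -0.12. The list summed to 349 CPM in cluster 8 and 384 CPM in the other mature luminal clusters.

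Further genes named for their number of UMIs were these. *Atrx*, a chromatin remodeler, was at 134 against 87.1 CPM (0.62) and *Arid4b*, a chromatin-associated protein, at 96.2 against 63.7 CPM (0.59). *Kcnq1ot1*, an imprinted antisense RNA, was at 92.9 against 57.7 CPM (0.69). It was the 1 of 3 tested genes on the list of nuclear RNAs that was higher, against 0.982% of all genes tested. Whether the counting used strand is not given in the sources used here, and without strand its reads cannot be told apart from those of *Kcnq1*. Genes named Zfp, most of which encode zinc-finger proteins, made up 17 of the 160 higher genes (10.6%) and 1.83% of all genes tested, with *Zfp442* (5.59 against 2.27 CPM, 1.30) and *Zfp62* (9.12 against 4.29 CPM, 1.09) among them. This group was defined after the values were seen. The most abundant nuclear RNA, *Malat1*, differed little, at 56253 CPM in cluster 8 against 51671 CPM (0.12).

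*Uqcrb*, a subunit of complex III that is encoded in the nucleus, was at 59.0, 56.6, 70.2 and 64.0 CPM in WT A, WT B, mutant A and mutant B and at 62.6 CPM pooled, against 29.4 CPM in the other mature luminal clusters (1.09, 0.978 to 1.204). *Ghr*, the growth hormone receptor, was at 10.4 against 5.93 CPM (0.81, 0.53 to 1.08), and was the 1 gene of 9 tested on the prolactin and STAT5 list that was higher. *Bcl6*, a transcriptional repressor, was the 1 gene that was higher among 11 tested targets of FOXO (7.28 against 4.77 CPM, 0.61), and *Cdkn1b*, the cell cycle inhibitor p27, the 1 that was lower (23.7 against 37.6 CPM). Among all genes tested, 0.982% were higher and 4.27% lower, and 1 call in a short list says little about the list.

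Cells with a mitochondrial share like that of cluster 8 were also present in the other clusters, which allowed the same genes to be read in cells that were not placed in cluster 8. This comparison was chosen after seeing the data. With the lower quartile of cluster 8, 0.704%, as the limit, 1625 of the 20863 other mature luminal cells (7.79%) had such a share. They made up 13.6% of cluster 4, 15.7% of cluster 5, 18.5% of cluster 6 and 29.96% of cluster 9, but 2.67% of cluster 7, 1.07% of cluster 10 and 3.00% of cluster 11. In the luminal progenitor clusters 1 and 2 and in cluster 3 the shares were 12.4%, 16.1% and 16.2%.

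Of the 130 genes, 116 were higher in the cells of the other mature luminal clusters with a high share than in those with a low share, 64 of them in all 4 libraries. Of all genes, 59.0% were higher and 20.5% were so in all 4 libraries. The median log2 ratio of high over low was 0.52 for the 130 genes and 0.07 for all genes. Within single clusters between 83 (cluster 10) and 113 (cluster 4) of the 130 genes were higher, where 57.3% and 53.6% of all genes were higher in the same clusters. In all 4 libraries, 5 of them were higher in cluster 10 and 50 in cluster 4 (2.62% and 8.17% of all genes).

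*AW112010* was at 1438, 1622, 1259 and 1542 CPM in the cells with a high share of WT A, WT B, mutant A and mutant B, outside cluster 8. Pooled, it was at 1477 CPM against 659 CPM in cells with a low share, a log2 ratio of 1.16, and its level in cluster 8 was 1560 CPM. *Hes1* was at 804 against 457 CPM (0.82), and *Eif3e* at 321 against 208 CPM (0.62). For *Uqcrb* the levels were 65.3 and 26.4 CPM (1.30), with cluster 9 as the exception. The difference was also seen outside the mature luminal class: in cluster 3, *AW112010* was at 981 CPM in cells with a high share and 406 CPM in those with a low one, and in cluster 1 at 173 and 78.0 CPM (1.15). In cluster 1, *Prlr* differed alongside it, at 407 against 204 CPM (0.99, higher in 4 of 4 libraries). Cluster 3 as a whole had *Prlr* at 1613 CPM. Of its cells, 49.5% were among the 6% with the highest doublet scores, against 2.77% of the other mature luminal cells. The part of mature luminal RNA and of doublets in the values of clusters 1 and 3 was not tested. In cluster 2 *AW112010* was at 170 against 114 CPM (0.58), with the direction reversed in WT A (97.2 against 128 CPM).

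Within cluster 8, *AW112010* did not follow the mitochondrial share, while some other genes did. From the lowest to the highest of the 4 groups of cells it was at 1567, 1570, 1574 and 1525 CPM. *mt-Nd1* went from 997 to 3918 CPM, which follows from how the groups were made. *Hes1* was at 887, 820, 819 and 836 CPM. *Kcnq1ot1* was at 75.6, 81.0, 97.6 and 119 CPM, *Atrx* at 121 CPM in the lowest and 158 CPM in the highest group, *Eif3e* at 330 and 397 CPM, and *Ly96* at 15.9 and 26.1 CPM. *Dmbt1* went the other way, at 396, 292, 235 and 235 CPM, whereas *Cited1* was at 737 CPM in the lowest and 1286 CPM in the highest group. Cells of cluster 8 with little mitochondrial RNA for that cluster thus had *AW112010* at the level of the rest of the cluster.

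Set against the 1625 cells with a high share alone, many calls of cluster 8 changed. By the same rule 205 genes were higher and 691 lower, of which 18 and 299 were also called against all other mature luminal cells. *AW112010* had a log2 ratio of 0.08 (0.04 to 0.11), *Hes1* of 0.06 (0.02 to 0.11) and *mt-Nd1* of -0.09 (-0.12 to -0.07). For *mt-Nd1* and other genes of the mitochondrial genome, choosing the cells by their mitochondrial share largely fixes this outcome. *Dmbt1* (290 against 173 CPM, 0.75), *Iigp1* (129 against 80.7 CPM, 0.68) and *Ghr* (10.4 against 3.76 CPM, 1.46, 0.84 to 2.14) were among the 18. Outside cluster 8, *Ghr* was at 3.76 CPM in the cells with a high share, from 25 UMIs, and at 6.11 CPM in those with a low share, and its direction differed between clusters. *Dmbt1* also went both ways, at 266 against 183 CPM in cluster 4 (0.54, higher in 4 of 4 libraries) and at 28.5 against 124 CPM in cluster 7 (-2.12, higher in 0 of 4). The cells with a high share came mostly from clusters 4, 5, 6 and 9, so the cluster of origin differs along with the share in this comparison.

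The higher genes of cluster 8 also had transcripts with little guanine and cytosine (GC). The 81 nuclear protein-coding genes among them had a median GC content of 41.4% (quartiles 39.9% and 45.2%) in their longest transcript, against 50.03% for all protein-coding genes tested and 49.7% for the lower ones. The transcripts were longer too, with a median of 4175 against 3305 bases. The 26 tested genes of the mitochondrial genome had a median of 36.5%.

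The relation ran through all protein-coding genes with at least 200 UMIs and was not a property of the called genes alone. These genes were divided into 5 groups of about equal size. From the group with the lowest to that with the highest GC content, the median log2 ratio of cluster 8 over the other mature luminal clusters was 0.09, 0.03, -0.01, -0.06 and -0.08. The order was the same in each of the 4 libraries. In these groups 57, 11, 8, 4 and 1 genes were called higher, of about 2107 genes each. Lower genes were also more frequent at low GC content, with 93, 88, 73, 72 and 53 genes, though the range was narrower. Against clusters 4, 7, 10 and 11, which like cluster 8 held few dividing cells, the medians were 0.14, 0.08, 0.02, -0.04 and -0.06. In that comparison 81, 17, 8, 4 and 2 genes were higher. The lower genes numbered 11, 17, 13, 12 and 15 and were thus not more frequent at low GC content. The cells of the other mature luminal clusters with a high mitochondrial share showed the order as well when set against those with a low share, with medians of 0.22, 0.14, 0.06, -0.00 and -0.05. Mutant over WT within cluster 8 showed little of it, with medians between -0.03 and -0.00. The part that GC content, transcript length and mitochondrial share each had in the differences of single genes was not tested.

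**Figure D3:**
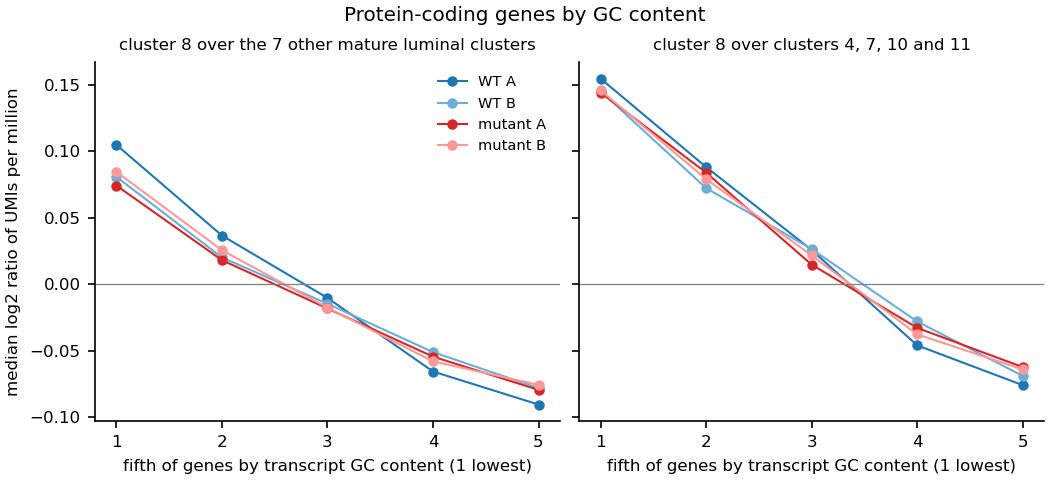
Median log2 ratio of cluster 8 over the 7 other mature luminal clusters (left) and over clusters 4, 7, 10 and 11 (right), for protein-coding genes in 5 groups of transcript GC content, by library. In both panels every library falls from the group with the lowest to that with the highest GC content, and the libraries of the genotypes overlap or nearly so in each group.

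The genes with the lowest ratios included many of the cell cycle. All 12 genes of the proliferation list were lower (median log2 ratio -2.91), as were 11 of 12 genes of the S phase list, against 4.27% of all genes tested. Of the 696 lower genes, 524 had their highest level in cluster 5 or 6, against 37.9% of all genes tested. *Ccnb1*, the mitotic cyclin B1, was at 0.82, 0.63, 1.41 and 1.55 CPM in WT A, WT B, mutant A and mutant B of cluster 8, and at 1.10 CPM pooled against 19.2 CPM (-4.12, -4.97 to -3.40). *Aspm*, a spindle pole protein, was at 0.22 against 4.56 CPM from 3 UMIs (-4.37, -6.65 to -2.81), and *Plk1*, a mitotic kinase, at 1.54 against 21.8 CPM (-3.82). *Mki67*, a marker of dividing cells chosen after its values were seen, was at 7.13 against 28.5 CPM (-1.999), and *Mcm5*, of the replicative helicase, at 15.9 against 37.3 CPM (-1.23). *Polq*, the DNA polymerase theta, had 0 UMIs in cluster 8, which with a floor of 3 UMIs (0.221 CPM) makes it at least 2.86-fold lower.

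These differences came from clusters 5 and 6. Cluster 6 had 135 CPM of *Ccnb1* and 151 CPM of *Plk1*, and cluster 5 had 243 CPM of *Mcm5*, while clusters 4, 7, 10 and 11 had between 0.48 and 1.49 CPM of *Ccnb1*. Against clusters 4, 7, 10 and 11 alone, cluster 8 was not lower: the log2 ratio turned to 0.21 for *Ccnb1*, 0.36 for *Plk1* and 0.60 for *Mcm5*.

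Against those 4 clusters, 194 genes were higher (1.26% of 15386) and 222 lower (1.44%). Of these, 126 and 180 were also called against all 7 clusters. Many of the lower ones with the most UMIs, which were chosen for description after their values were seen, were genes of cluster 4. *Actb*, cytoplasmic actin, was at 2248, 2209, 2336 and 2188 CPM in the libraries of cluster 8 and at 4443 CPM in the 4 clusters together, but cluster 4 had 12602 CPM and clusters 7, 10 and 11 had 2478, 1961 and 2003 CPM. *Abhd2*, a lipid hydrolase, was at 146 CPM against 422 CPM, with 1377 CPM in cluster 4, and *Slc39a1*, a zinc transporter, was at 30.9 CPM, with 265 CPM in cluster 4. *Spry2*, a feedback inhibitor of receptor tyrosine kinase signaling to ERK, behaved likewise, with 17.7 CPM in cluster 8 and 127 CPM in cluster 4. Against all 7 other mature luminal clusters, *Spry2* was 1 of 3 lower genes among 12 tested of the ERK feedback list. The others were *Spry4* (1.18 against 1.98 CPM) and *Etv5* (0.96 against 2.17 CPM), both at low levels. In that comparison 4.27% of all genes tested were lower.

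Genes for which cluster 8 was the lowest of the 8 clusters numbered 154 among the 696 (22.1%, against 3.86% of all genes tested), and they differed less. A call as lower itself makes the lowest rank more likely. *Pdp2*, a phosphatase that activates mitochondrial pyruvate dehydrogenase, was at 4.12, 2.81, 2.54 and 4.35 CPM in the 4 libraries and at 3.46 CPM pooled, against 6.81 CPM (-0.98, -1.44 to -0.55). The next lowest cluster, cluster 10, had 5.04 CPM. *Tmem69* was at 3.68 against 5.99 CPM (-0.70, -1.15 to -0.28).

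Genes of stress responses and of other cell types gave few or no calls. None of the 18 immediate early, 11 heat shock, 14 unfolded protein response, 10 p53 and 12 glycolysis and hypoxia genes tested met either rule, and their median log2 ratios were -0.02, 0.03, -0.03, 0.02 and -0.09. Of all genes tested, 0.982% were higher and 4.27% lower, so that few or no calls in short lists are near the share of all genes. *Hsp90b1*, a chaperone of the endoplasmic reticulum, was at 264 against 192 CPM (0.46), below the limit of fold. Of 17 genes of glutathione and peroxide defense, *Nqo1* was lower (0.74 against 1.53 CPM). Of 10 immune genes, 6 could be tested and 0 met either rule. Their sum was 6.98 CPM in cluster 8 (4.94 to 9.07 in the libraries) against 9.55 CPM, with *Ptprc* and *Cd3e* at 0 UMIs. The 10 basal genes together were at 29.7 CPM (21.7 to 37.8) against 27.6 CPM, the 8 endothelial genes at 27.7 CPM (24.3 to 31.6) against 29.96 CPM, and the 8 fibroblast genes at 10.4 CPM (2.49 to 18.9) against 10.6 CPM.

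The genes that varied most among the cells of cluster 8 were of different kinds. In cells thinned to 1000 UMIs, the variance over the mean, which is 1 for random sampling, was 19.8 for *Malat1*, 11.4 for *Pcp4*, a calmodulin-binding protein, and 9.31 for *Igsf5*, a junctional adhesion molecule. It was 7.10 for *Gpx3*, the secreted glutathione peroxidase, 7.01 for *Upk3a*, a uroplakin, 6.30 for *Sprr1a*, a protein of the cornified envelope, and 5.65 for *Tmsb4x*, which encodes an actin-binding thymosin. The value for *Pcp4* was between 10.8 and 11.9 in the 4 libraries. For *Sbp*, a spermine-binding protein, it was 9.34 over all cells, but ran from 3.26 in mutant A to 12.4 in WT A.

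Cluster 8 took up 9.55% (8.97 to 10.2) of the cells of WT A and 7.82% (7.28 to 8.40) of those of WT B, and 10.0% (9.33 to 10.8) of mutant A and 9.005% (8.34 to 9.70) of mutant B. The libraries of the genotypes overlapped, and the ratio of the mutant to the WT share was 1.09 (1.02 to 1.17), with library pairs from 0.943 to 1.28. It was 1.22 without WT A and 0.997 without WT B. Among mature luminal cells only, WT A had 12.5%, WT B 10.3%, mutant A 14.4% and mutant B 12.95% of them in cluster 8, so that the genotypes did not overlap, with a ratio of 1.19 (1.11 to 1.28). Among cells outside cluster 11, which differs in size between the pools, the ratio was 0.971 (0.907 to 1.04).

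Between the genotypes, the targeted gene is given first. *Erbb3* was at 77.2 and 80.4 CPM in the WT libraries of cluster 8 and at 35.3 and 31.4 CPM in the mutant libraries. The groups did not overlap, and the log2 ratio of mutant over WT was -1.23 (-1.47 to -1.01), close to the -1.10 of the other mature luminal clusters together. The 3′ tags do not cover the mutated codon and therefore do not check the mutation itself. Before recombination the targeted allele ends in a 3′ untranslated region of human growth hormone, so that fewer transcripts and unrecombined alleles cannot be told apart here. *Erbb2*, which encodes the partner receptor of ERBB3, was at 40.4 and 44.7 CPM in WT and at 44.8 and 38.8 CPM in the mutant, so that the libraries overlapped.

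A gene was called between genotypes when it differed by a fold of 1.5 or more, had at least 50 UMIs in the genotype with more, and had both mutant libraries beyond both WT libraries. Of 9697 genes in cluster 8, 210 (2.17%) were higher in the mutant and 133 (1.37%) were lower, and the counting interval excluded a ratio of 1 for 201 and 126 of them. The fold and the minimum of UMIs make such an outcome likely in advance, so it is no further support. The median log2 ratio of all genes was -0.01. In the other mature luminal clusters together, which share the mice and the 4 libraries but no cells with cluster 8, 55 of the 210 genes were also called higher and 20 of the 133 also called lower. Of all 14775 genes tested there, 2.84% and 1.52% were called in these directions. The ratio had the same sign there for 198 of the 210 and for 118 of the 133 genes, and the share of all genes with the same sign is not given here. With the libraries shared, this is not independent support. The counts of the single clusters 4, 5, 6, 7 and 10 ran from 163 to 266 higher and from 91 to 139 lower genes. Cluster 9 had 63 higher and 67 lower genes, and cluster 11 had more lower than higher genes, 324 against 76. The counts of cluster 8 move with single libraries: without WT A 391 genes were higher, without mutant A 115 were higher and 236 lower, without mutant B 234 were lower, and without WT B 72 were lower.

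The genes with the largest ratio of mutant over WT included enzymes, a growth factor and a transporter. *Gsta4*, a glutathione transferase for lipid peroxidation products, was at 189 and 180 CPM in WT and at 412 and 530 CPM in the mutant (1.34, 1.25 to 1.44). *Cdk5rap1*, an enzyme that modifies mitochondrial transfer RNAs, was at 5.22 and 9.38 CPM in WT and at 20.03 and 23.3 CPM in the mutant (1.59, 1.12 to 2.09). *Epgn*, which encodes the EGF receptor ligand epigen, was at 1.37 and 5.63 CPM in WT and at 12.4 and 7.46 CPM in the mutant (1.58, 0.88 to 2.33), from 91 UMIs in all. *Slc15a2*, a peptide transporter, was at 4.94 and 5.002 CPM in WT and at 12.98 and 12.7 CPM in the mutant (1.37, 0.78 to 1.99). The libraries of a genotype lay close together for *Gsta4* and *Slc15a2* and far apart for *Epgn*. In the other mature luminal clusters together the log2 ratios of these 4 genes were 1.41, 1.54, 1.46 and 1.66, in the order given.

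The transcription factor *Foxq1* was at 12.4 and 11.9 CPM in WT and at 31.9 and 27.0 CPM in the mutant (1.29, 0.91 to 1.67; other mature luminal clusters 0.94). *Fmo1*, a flavin-containing monooxygenase, was at 4.94 and 5.32 CPM in WT and at 14.4 and 11.8 CPM in the mutant (1.36). Its log2 ratio was 0.56 in the other mature luminal clusters. *Sgk1* and *Cish*, which are not among the genes with the largest ratios, were chosen after their values were seen. *Sgk1*, a kinase induced by steroid hormones, was at 133 and 134 CPM in WT and at 215 and 232 CPM in the mutant (0.74), and *Cish*, a target of prolactin and STAT5, at 22.8 and 30.01 CPM in WT and at 51.3 and 35.4 CPM in the mutant (0.74). *Pcp4* and its neighbour on chromosome 16, *Igsf5*, were both higher in the mutant, with *Pcp4* at 1066 and 1069 CPM in WT and at 1632 and 1775 CPM in the mutant (0.67).

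Among the lower genes, *Gm13736* was at 9.88 and 9.38 CPM in WT and at 0.56 and 0.62 CPM in the mutant (-4.03, -5.95 to -2.60). *Clca3a2*, of the family of calcium-activated chloride channel regulators, was at 51.9 and 61.0 CPM in WT and at 21.2 and 25.5 CPM in the mutant (-1.27, -1.55 to -1.002). The fibrinogen chain *Fgg* was at 502 and 511 CPM in WT and at 280 and 258 CPM in the mutant (-0.91), against -0.88 in the other mature luminal clusters. *Prlr* (-0.13), *Pgr* (0.06) and *Foxa1* (0.06) did not meet the rule.

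A pair of the lower genes rested on few cells. *Ccl5*, a chemokine of T cells, was at 11.5 and 15.95 CPM in WT and at 2.82 and 0.93 CPM in the mutant (-2.82), but its 93 UMIs in WT came from 20 cells, with 34 from 1 cell. *Dcn*, a proteoglycan of fibroblasts, was at 18.1 and 14.4 CPM in WT and at 2.82 and 2.49 CPM in the mutant (-2.62), from 112 UMIs in 37 WT cells. Cells with UMIs of at least 2 immune, endothelial or fibroblast marker genes made up 0.762% and 1.70% of cluster 8 in WT A and B and 1.31% and 0.479% in mutant A and B. Without these 31 cells, an alternative chosen after seeing the data, 203 genes were higher in the mutant and 134 lower, of which 188 and 123 were the same as before.

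Proliferation genes were low in cluster 8 of both pools. Of the 8 proliferation genes that could be tested, 4 were higher in the mutant (median log2 ratio 0.53), against 1 of 12 genes of the S phase list (0.18). Of all genes tested in cluster 8, 2.17% were higher in the mutant. *Top2a*, *Cenpf* and *Mki67* were chosen after their values were seen. *Top2a*, a DNA topoisomerase, was at 10.2 and 14.1 CPM in WT and at 20.3 and 15.9 CPM in the mutant (0.60, 0.19 to 1.02). *Cenpf*, a kinetochore protein, was at 5.49 and 7.19 CPM in WT and at 12.1 and 13.05 CPM in the mutant (0.9996, 0.45 to 1.56). For *Mki67* the ratio was 0.59 with an interval from -0.02 to 1.21. In the other mature luminal clusters together the ratios of these genes were 0.20, 0.16 and 0.25, and the difference from cluster 8 was not tested. *Aurka*, a mitotic kinase on neither list and also chosen after its values were seen, was called lower in the mutant. It was at 28.9 CPM in WT and 17.9 CPM in the mutant (-0.69, -1.03 to -0.36). The genes that mark the cluster did not differ by the rule: 0 of 18 genes of the mitochondrial genome did (median log2 ratio 0.17), *AW112010* had a log2 ratio of 0.03 (-0.01 to 0.07), and *Hes1* one of -0.33 (-0.39 to -0.28), close to its -0.34 in the other mature luminal clusters. With 2.17% of all genes called higher and 1.37% called lower, 0 of 18 is near the share of all genes.

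**Figure D4:**
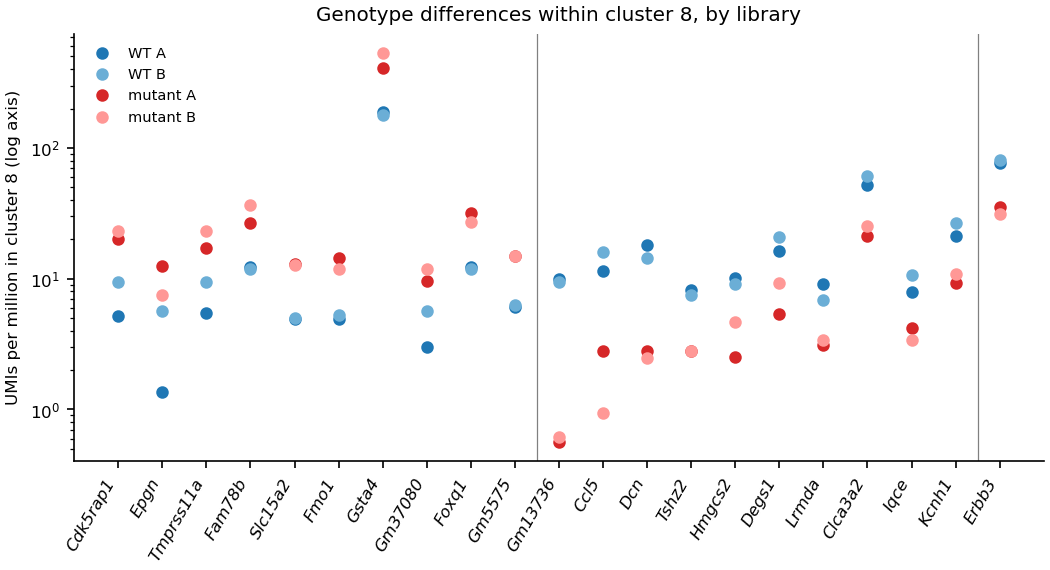
Levels in cluster 8 (CPM, log axis) of the 10 genes with the largest ratio in each direction between the genotypes and of *Erbb3*, with 1 point per library. By the rule that chose these 20 genes the libraries of the genotypes do not overlap; *Gm13736* has the widest gap and *Epgn* the widest spread within WT.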

How the data were processed

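Single-cell libraries of 4 samples (2 per pool of 3 mice) were analysed. The deposited values are a signal: in each of 32439 cells, the authors had scaled the UMIs of 52636 genes by a factor of that cell. The table also holds the cluster numbers from Partek Flow, which were used as they stand. Per the labels, CASAVA 1.8, bcl2fastq 2.20 and GSNAP were used with GRCm38. Dividing the signal of a cell by its smallest value gave whole UMIs within 0.02 for 100% of 60853305 nonzero values.

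Sums of UMIs were taken per cluster and library. Log2 ratios of CPM have exact conditional binomial intervals, and shares have Clopper-Pearson intervals. No p-value was taken from cells. A total of 5 cells of cluster 8 and 81 other mature luminal cells under 1000 UMIs were left out of thinned values. Doublet calling with scrublet marked 6 cells (0.0185%), far below the 6% set as the expected rate. Its calls were therefore not used, no cell was removed, and its scores alone are used. How well the scores rank doublets was not tested. Transcripts of GENCODE release M21 gave positions, GC content (longest transcript) and matches to the mitochondrial genome (blastn 2.17.0, e-value 1e-10).

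The genes named were the mature luminal list, the 12 with the largest ratio in each direction, the 8 farthest beyond the next cluster on either side, the 10 with the largest genotype ratio in each direction, the 8 with the largest variance over mean, up to 4 per gene list, and those said to be chosen after their values were seen. Some of these are covered by counts only. The members and lists were chosen with earlier results of these data known. The rules were tested on simulated data. Alternatives were leaving out each library, size factors, means of the deposited values, other minimums of UMIs, leaving out shallow cells or high doublet scores, other clusters as the comparison, and equal weights. Python 3.11.15, numpy 2.4.6, pandas 2.3.3, scipy 1.17.1, scanpy 1.11.5 and matplotlib 3.10.9 were used.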

Additional observations from a re-analysis of the deposited data

How the results depend on the processing

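The share of cluster 8 in the mutant relative to WT stayed between 0.997 and 1.22 when each library was left out. Counts of genes moved with the minimum of UMIs, the libraries used and the clusters compared. With 20 UMIs, 100 UMIs or no minimum in place of 50, the genes higher in cluster 8 numbered 289, 103 and 565, those higher in the mutant 513, 106 and 1814, and those lower in the mutant 359, 50 and 1435; without a minimum 1624 genes were lower in cluster 8. Leaving out 1 library gave 115 to 391 genes higher and 72 to 236 lower in the mutant, and 143 to 152 higher and 750 to 832 lower in cluster 8. Against clusters 4, 7, 10 and 11 in place of all 7, 222 genes were lower, and the log2 ratios of *Ccnb1* (0.21), *Plk1* (0.36), *Ccna2* (0.30), *Nusap1* (0.90), *Aurkb* (0.25), *Rrm2* (0.98), *Tyms* (0.0155), *Mcm5* (0.60) and *Mcm3* (0.32) turned positive, since that comparison leaves out the dividing clusters 5 and 6. Against other mature luminal cells of high mitochondrial share only, a comparison added after seeing the data, the log2 ratios of *Gm13341* (-0.13), *mt-Co2* (-0.00445), *mt-Nd1* (-0.0943), *mt-Rnr2* (-0.11), *Kcnq1ot1* (-0.0566), *AC142499.2* (-0.27), *Gm2962* (-0.0650), *Uqcrb* (-0.0625), *Atrx* (-0.0652) and *Rpl22l1* (-0.12) turned negative. The turn of *Gm13341*, *mt-Co2*, *mt-Nd1* and *mt-Rnr2* follows largely from choosing those cells by their mitochondrial share. Size factors in place of totals shifted log2 ratios by -0.03 between clusters and -0.02 between genotypes and gave 130 higher and 734 lower genes in cluster 8. No paired analysis was possible because the table names the library of a cell without the replicate number of the labels. With 1 pool per genotype, depth is not what limits the comparison of genotypes: differences between mice and between pools cannot be told apart from the genotype.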
